A study of Homo sapiens with 16 samples.

Results

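Transcript levels of 10 glycolysis genes were followed in MOLM-13 cells, an established human line of acute myeloid leukaemia that carries an MLL fusion. The genes were picked by symbol from a table of 60669 genes: SLC2A1, HK2, PFKP, PFKL, ALDOA, GAPDH, PGK1, ENO1, PKM and LDHA. Each symbol matched 1 entry, and all 10 passed the filter on low counts. The cells received DMSO at 0.005% (the vehicle), an inhibitor of EZH2 at 1 µM (EZH2i), an inhibitor of PRMT5 at 1 µM (PRMT5i) or the 2 inhibitors together (the combination), for 4 days and with 4 libraries each. All groups are the same cell line in RPMI medium with serum. The labels name neither compound and give no doses for the combination apart from those of the single inhibitors, so comparisons of the combination with 1 inhibitor, and the interaction, take the doses to be equal. They do not say whether the 4 replicates came from separate cultures, so the p-values measure only the spread between these libraries, which may be technical.

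Glycolysis splits glucose into pyruvate and yields ATP without oxygen. Glucose enters through transporters such as SLC2A1 (GLUT1), is trapped by hexokinases, is committed by phosphofructokinase, and is split, oxidised and rearranged by aldolase, GAPDH, phosphoglycerate kinase, enolase and pyruvate kinase before lactate dehydrogenase turns pyruvate into lactate. Many of these genes are textbook targets of hypoxia-inducible factor (HIF) and MYC, and leukaemia cells draw on the pathway heavily. EZH2 is the H3K27 methyltransferase of polycomb repressive complex 2, and PRMT5 places symmetric dimethylarginine on histones and splicing proteins.

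The libraries held 31.1 to 52.9 M expected counts (M for 1e6), and the 10 genes had between 1144 and 189152 counts each per library. Counting error was thus small beside the spread between replicates for most genes. It was not for SLC2A1 with PRMT5i, where libraries with 2351 to 3027 counts had an SD of 1.59% of the mean CPM. Together they took 0.831 to 1.02% of the counts with DMSO, 0.997 to 1.10% with EZH2i, 0.803 to 0.841% with PRMT5i and 0.828 to 0.921% with the combination. DMSO replicate 1 stood apart: 1.70% of its counts were mitochondrial, against 0.213 to 0.518% in the other DMSO libraries. It was the lowest DMSO library for 7 of the genes (SLC2A1, HK2, PFKP, ALDOA, GAPDH, PKM and LDHA) and the highest for 2 (PGK1 and ENO1), and results that change without it are given both ways. Markers of erythroid cells summed to at most 0.221 CPM (counts per 1e6 of the TMM-scaled library) and those of B cells to at most 1.96 CPM in any library. Granulocyte markers summed to 1392 to 3193 CPM with DMSO, with 3 of the 8 under 1 CPM by mean, and MOLM-13 is a myeloid line.

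**Figure D1:**
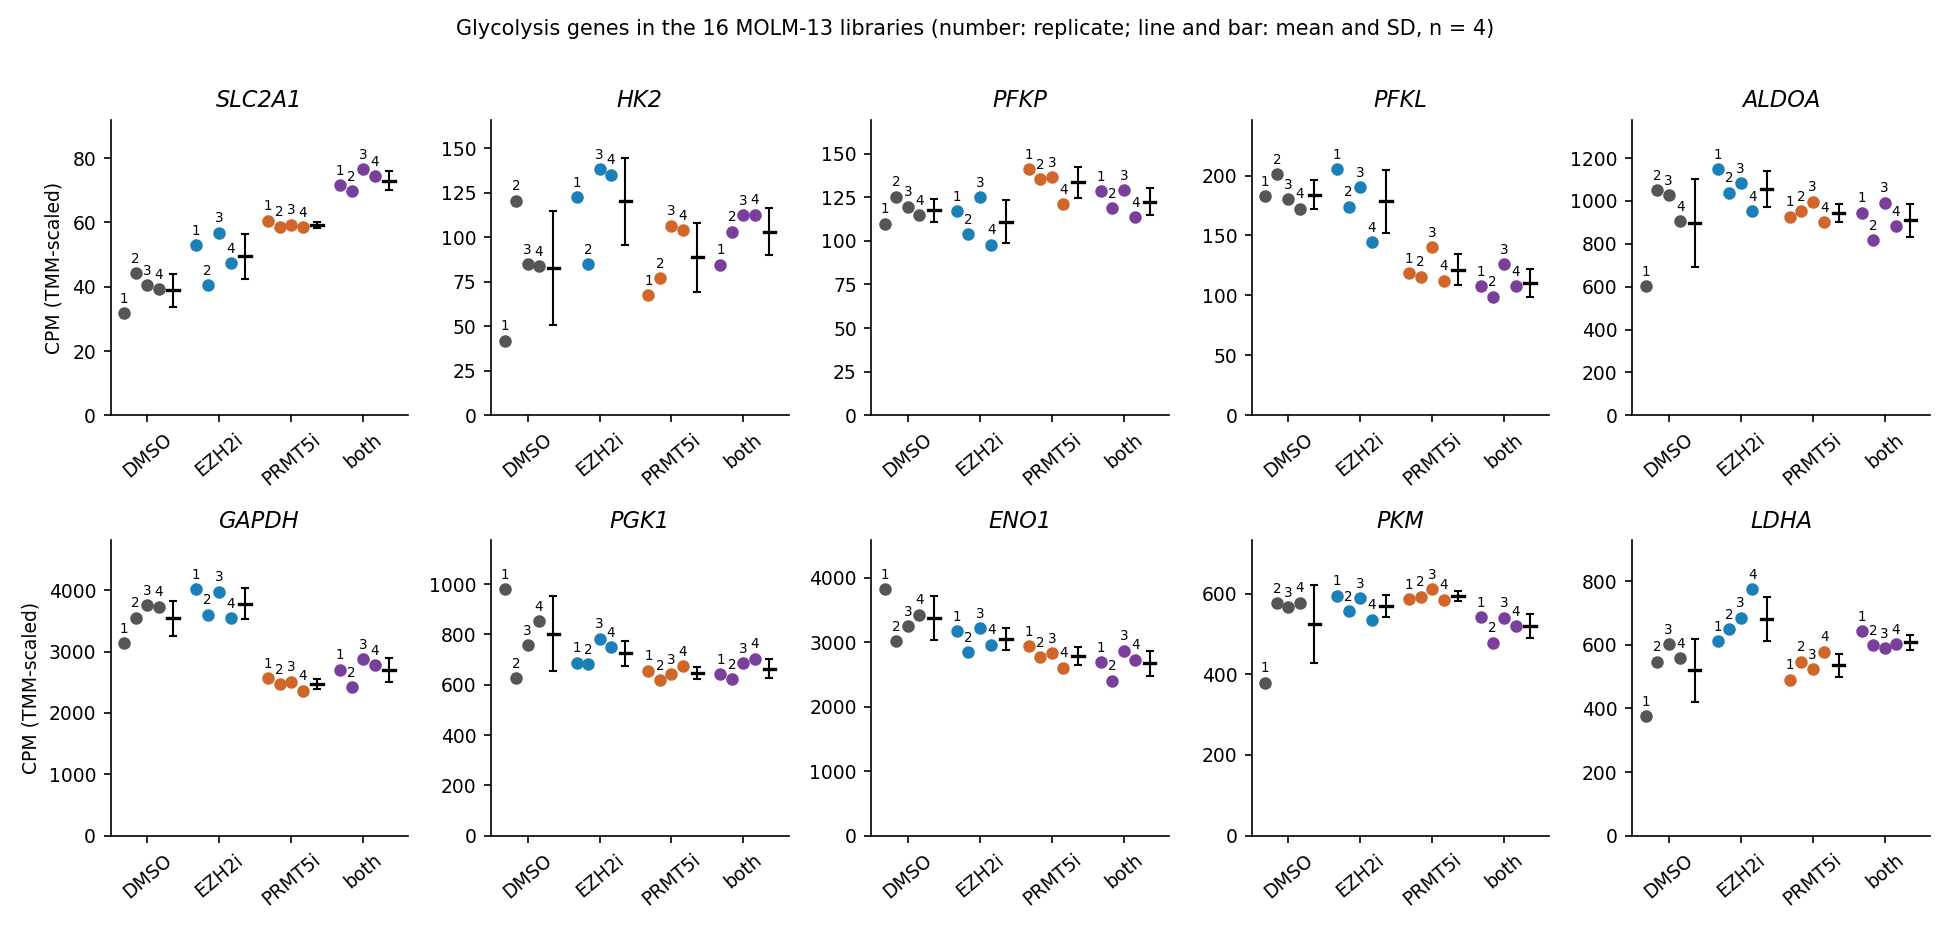
CPM (scaled by TMM, linear axes from 0) of each glycolysis gene in the 16 libraries, with the replicate number above each point and the mean and SD (n = 4) to the right of the points. SLC2A1 lay at 31.7 to 44.2 CPM with DMSO and at 69.6 to 76.5 CPM with the combination, while PFKL and GAPDH lay lower in all 8 libraries with PRMT5i than in all 8 without it.

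The order of the levels was set per kilobase of the longest principal transcript of each gene in GENCODE release 29. With DMSO the enzymes of the lower pathway led: GAPDH at 1889 ± 154 CPM per kb (SD, n = 4) and ENO1 at 1441 ± 144, followed by ALDOA at 559 ± 128. LDHA (215), PKM (193) and PGK1 (164 CPM per kb) came next, and the ranges of LDHA and PKM, and of PKM and PGK1, overlapped. The gatekeepers of the upper pathway were the lowest: PFKL at 63.2 ± 4.19, PFKP at 44.2 ± 2.49, HK2 at 14.4 ± 5.57 and SLC2A1 at 10.6 ± 1.42 CPM per kb, the last pair with overlapping ranges. In this order 2 pairs changed places with PRMT5i and with the combination. PFKP (50.3 CPM per kb with PRMT5i, 46.1 with the combination) then stood above PFKL (41.8 and 37.8), and SLC2A1 (16.1 and 19.9) above HK2 (15.4 and 17.9), with overlapping ranges in each case. When the length of all exons joined was used instead, a choice made after seeing the data, PGK1 stood above LDHA and PKM, and PFKP above PFKL, already with DMSO. On that scale HK2 also stayed above SLC2A1 with PRMT5i (14.6 against 12.5 CPM per kb) and with the combination (17.0 against 15.4). PFKL then lay below HK2 with PRMT5i (13.6 CPM per kb) and was the lowest of the 10 genes with the combination (12.3).

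With PRMT5i, 5 of the 10 genes passed the test against DMSO: the transporter SLC2A1 rose, and PFKL, GAPDH, PGK1 and ENO1 fell. That is 1 higher and 4 lower, beside 17.1% of all 16555 tested genes called higher and 18.3% called lower (35.3% either way). The groups did not overlap for 5 of the 10, beside 33.8% of all genes tested. The median log2 fold change of the 10 was 0.06, beside 0.00 for all genes tested. Calls are adjusted p-values under 0.05 from edgeR's quasi-likelihood test with Benjamini-Hochberg adjustment over all genes tested, and so is every adjusted p below unless another tool is named.

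SLC2A1 (chr1:42925375-42959176, GRCh38, minus strand, here and below by GENCODE release 29) carries glucose across the plasma membrane. Its levels were 31.7, 44.2, 40.4 and 39.2 CPM in DMSO replicates 1 to 4 and 60.5, 58.6, 59.3 and 58.4 CPM with PRMT5i. Every PRMT5i library lay above every DMSO library, and the PRMT5i libraries lay close together (59.2 ± 0.944 CPM, SD, n = 4). The log2 fold change was 0.61 (SE 0.107, adjusted p = 0.000297).

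PFKL (chr21:44300051-44327376, plus strand) encodes the liver-type subunit of phosphofructokinase, the committed step. It measured 183, 201, 180 and 172 CPM in DMSO libraries, against 119, 116, 140 and 112 CPM with PRMT5i. The groups did not overlap, and the log2 fold change was −0.60 (SE 0.108, adjusted p = 0.000373). PFKP, the platelet-type subunit of the same enzyme, measured 110, 125, 119 and 115 CPM in DMSO libraries against 141, 135, 136 and 121 CPM in those with PRMT5i. These ranges overlapped and the difference of 0.18 on the log2 scale did not pass (adjusted p = 0.102).

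GAPDH (chr12:6533927-6538374, plus strand), the oxidising step that yields NADH, is often taken as a reference gene. Its levels with DMSO were 3133, 3550, 3755 and 3733 CPM, and with PRMT5i 2564, 2466, 2507 and 2362 CPM. All 4 PRMT5i libraries lay below all 4 DMSO libraries. The log2 fold change was −0.52 (SE 0.081, adjusted p = 9.65e-05).

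ENO1 (chr1:8861000-8879250, minus strand), the main enolase, measured 3819, 3017, 3252 and 3430 CPM with DMSO against 2943, 2768, 2829 and 2603 CPM with PRMT5i. The groups did not overlap, with DMSO replicate 2 lying closest to the PRMT5i range. Its log2 fold change was −0.28 (SE 0.0849, adjusted p = 0.0169), and it did not pass without PRMT5i replicate 4 (log2 fold change −0.25, adjusted p = 0.0610) or when only the 2 groups were fitted (adjusted p = 0.0672). PGK1 (chrX:77910739-78129296, plus strand), the kinase that makes the earliest ATP of the pathway, measured 979, 627, 757 and 851 CPM with DMSO against 655, 618, 642 and 674 CPM with PRMT5i. Here the groups overlapped, since DMSO replicate 2 lay inside the PRMT5i range and DMSO replicate 1 was the highest of all 16 libraries. Its log2 fold change of −0.31 (SE 0.108, adjusted p = 0.0330) was −0.22 without DMSO replicate 1 (adjusted p = 0.0856), and the call was also lost without DMSO replicate 4 or without any of the 4 PRMT5i replicates (adjusted p of 0.0514 to 0.0843).

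The other 5 genes did not pass with PRMT5i. PKM (pyruvate kinase) had a log2 fold change of 0.18 with groups that did not overlap: 585, 592, 610 and 585 CPM with PRMT5i against 379, 575, 566 and 578 CPM with DMSO (adjusted p = 0.222). The other DMSO libraries lay just below the PRMT5i range and DMSO replicate 1 far below it. HK2 (0.10, 95% interval −0.41 to 0.61), ALDOA (0.07, −0.21 to 0.36) and LDHA (0.04, −0.21 to 0.29) had intervals on both sides of 0, and all 3 log2 values turned negative without DMSO replicate 1 (−0.13, −0.09 and −0.10).

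**Figure D2:**
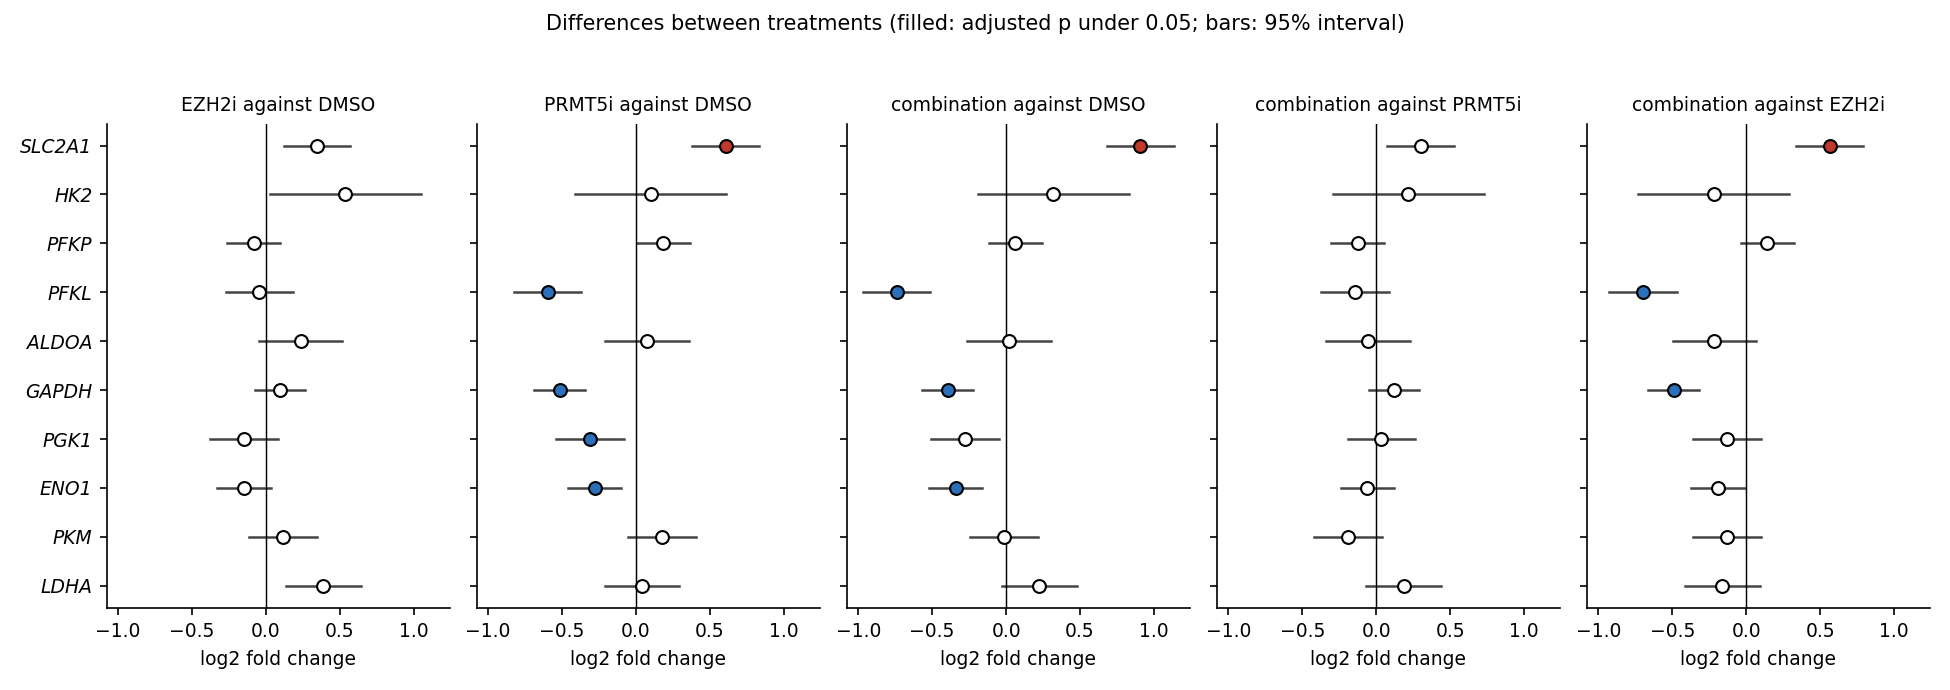
Log2 fold changes of the 10 genes in 5 comparisons, with bars for the 95% interval of the edgeR quasi-likelihood fit on all 16 libraries, and filled points where the adjusted p was under 0.05 (red higher, blue lower). SLC2A1 is filled to the right and PFKL and GAPDH to the left in the 3 comparisons that differ by PRMT5i, while no point is filled for EZH2i against DMSO or for the combination against PRMT5i.

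The promoters of 3 genes that fell with PRMT5i are shown, cut to the bases before the RefSeq start that no annotated exon covers (RefSeq, GRCh38.p14, plus strand): PFKL at chr21:44299803-44300050, PGK1 at chrX:78103998-78104173 and GAPDH at chr12:6535142-6535263. The PGK1 and GAPDH stretches lie inside the gene spans given above, so annotated transcripts of these genes also start upstream of them. Those of SLC2A1 and ENO1 lie within annotated exons and are not printed. Capitals mark the core letters of the HIF response element, ACGTG or GCGTG, read on either strand.

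PFKL: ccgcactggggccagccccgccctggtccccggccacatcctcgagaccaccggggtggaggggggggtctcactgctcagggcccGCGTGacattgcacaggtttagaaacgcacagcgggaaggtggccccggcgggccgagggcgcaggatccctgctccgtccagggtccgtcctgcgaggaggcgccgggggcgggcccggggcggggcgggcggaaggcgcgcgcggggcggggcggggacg
PGK1: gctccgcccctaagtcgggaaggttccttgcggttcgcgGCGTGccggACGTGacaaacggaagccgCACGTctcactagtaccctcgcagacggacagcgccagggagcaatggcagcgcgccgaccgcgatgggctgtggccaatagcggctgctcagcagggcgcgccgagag
GAPDH: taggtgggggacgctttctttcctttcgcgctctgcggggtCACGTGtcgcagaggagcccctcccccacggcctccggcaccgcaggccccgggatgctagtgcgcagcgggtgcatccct

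The PFKL stretch held 1 such core and 7 copies of the GC box GGGCGG, the PGK1 stretch 3 cores and 1 GC box, and the GAPDH stretch 1 E-box (CACGTG), which itself contains ACGTG on both strands. Over the 250 bases upstream, ACGTG was found for 4 of the 10 genes (HK2, ALDOA, GAPDH and PGK1) and in 18.51% of 35116 RefSeq promoters. GCGTG was found for 6 (HK2, PFKP, PFKL, PGK1, ENO1 and LDHA), beside 32.22% of all promoters, and the E-box for HK2 and GAPDH, beside 6.345%. GGGCGG was found for 9 of the 10, all but PFKP, beside 42.64%. A HIF core was present upstream of the genes that fell with PRMT5i (PFKL, GAPDH, PGK1 and ENO1). One was also present upstream of HK2, PFKP, ALDOA and LDHA, which did not pass. None was found for PKM, which did not pass, or for SLC2A1, which rose. The windows of PKM, SLC2A1 and ENO1 lie wholly within exons. The share of all promoters with either core was not counted. Apart from PFKL, the windows lie inside the span that GENCODE gives their gene, so annotated transcripts also start further upstream. The PFKP window (chr10:3104359-3104608) lies far from the start of its gene at 3066333, and 128 bases of the GAPDH window are exonic. These matches describe letters in a window, not binding.

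EZH2i alone moved none of the 10 genes past the threshold with edgeR's quasi-likelihood test, beside 4.11% of all genes tested called higher and 3.49% lower (7.6% either way). Before adjustment SLC2A1, HK2 and LDHA had p under 0.05. The share of all genes at that level was not counted. DESeq2 called SLC2A1 and LDHA, both higher, and 2176 genes in all. The median log2 fold change of the 10 was 0.11, against −0.01 over all genes tested.

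LDHA, which turns pyruvate into lactate and restores NAD+, measured 612, 650, 685 and 774 CPM with EZH2i against 375, 546, 602 and 557 CPM with DMSO. The groups did not overlap, as for 1 of the 10 genes and 10.6% of all genes tested in this comparison, and the log2 fold change of 0.39 (SE 0.119) just missed the threshold (adjusted p = 0.0578). SLC2A1 measured 52.9, 40.5, 56.8 and 47.4 CPM with EZH2i, with EZH2i replicate 2 inside the DMSO range. Its log2 fold change was 0.35 (SE 0.107, adjusted p = 0.0589).

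HK2, the inducible hexokinase, varied widely between replicates: 41.9, 121, 85.0 and 83.9 CPM in the DMSO libraries, and 123, 84.8, 138 and 135 CPM in those with EZH2i. The ranges overlapped widely, and the log2 fold change of 0.54 had a 95% interval of 0.03 to 1.05 (adjusted p = 0.168). With DMSO replicate 2 left out, 4 genes passed in this comparison: SLC2A1, HK2 and LDHA higher and PGK1 lower. With DMSO replicate 3 left out LDHA passed alone, and with EZH2i replicate 2 left out SLC2A1 passed alone. Without DMSO replicate 2 the count over all genes tested was 4591 in place of 1259. Over the 16 fits with a library left out, log2 fold changes ran from 0.27 to 0.46 for LDHA, 0.27 to 0.43 for SLC2A1 and 0.33 to 0.77 for HK2. Without DMSO replicate 1, the DMSO means were 568 CPM for LDHA, 41.3 for SLC2A1 and 96.5 for HK2. These lie nearer to the EZH2i means (680, 49.4 and 120 CPM), and none of these genes passed without that library.

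With the combination, 4 of the 10 genes passed against DMSO, 1 higher and 3 lower, beside 17.6% and 18.5% of all genes tested (36.2% either way). These were SLC2A1 at 71.5, 69.6, 76.5 and 74.3 CPM, PFKL at 108, 98.8, 126 and 108 CPM, GAPDH at 2702, 2423, 2874 and 2776 CPM and ENO1 at 2688, 2402, 2867 and 2728 CPM. The groups did not overlap for 4 of the 10 genes, these same 4, beside 33.1% of all genes tested. The log2 fold changes were 0.91 for SLC2A1 (SE 0.107, adjusted p = 7.71e-06), −0.74 for PFKL (SE 0.108, adjusted p = 5.96e-05), −0.40 for GAPDH (SE 0.0809, adjusted p = 0.00116) and −0.34 for ENO1 (SE 0.0849, adjusted p = 0.00512). PGK1 at 641, 622, 685 and 704 CPM missed the threshold (log2 fold change −0.28, adjusted p = 0.0539) and passed without DMSO replicate 2 (−0.38, adjusted p = 0.00292). It also passed with DESeq2 (adjusted p = 0.0489). With edgeR's test it passed with a replicate block (adjusted p = 0.0436) or with replicates 1 and 2 against 3 and 4 as a term (adjusted p = 0.0484). PKM passed only without DMSO replicate 1 (−0.16, adjusted p = 0.0441).

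Against EZH2i alone, the combination had SLC2A1 higher (log2 fold change 0.56, adjusted p = 0.000817) and PFKL (−0.70, adjusted p = 0.000139) and GAPDH (−0.49, adjusted p = 0.000244) lower, beside 13.4% of all genes called higher and 14.6% lower (28% either way). These 3 of the 10 genes separated the groups without overlap, as did 31.6% of all genes tested. Without DMSO replicate 1, which enters here only through the shared fit, ALDOA, ENO1 and PKM passed as lower too, which made 6. This comparison shares its combination libraries with the one against DMSO, so the calls are not independent.

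Adding EZH2i to PRMT5i moved none of the 10 genes past the threshold with edgeR's quasi-likelihood test, beside 2.91% of all genes tested called higher and 1.24% lower (4.16% either way), and DESeq2 called 0 as well. SLC2A1 alone had p under 0.05 before adjustment: its 4 combination libraries (69.6 to 76.5 CPM) all lay above the 4 PRMT5i libraries (58.4 to 60.5 CPM), with a log2 fold change of 0.30 (SE 0.106, 95% interval 0.08 to 0.53, adjusted p = 0.142). Separation was also complete for LDHA, at 643, 599, 590 and 602 CPM against 491, 547, 524 and 578 CPM (0.19, adjusted p = 0.523), and for PKM, at 541, 478, 540 and 518 CPM against 585, 592, 610 and 585 CPM (−0.19, adjusted p = 0.441). Groups thus did not overlap for 3 of the 10 genes, beside 18.9% of all genes tested.

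These 3 genes passed when only the 8 libraries of the comparison were fitted: SLC2A1 at adjusted p = 0.00381, PKM at 0.0257 and LDHA at 0.0479. Without DMSO replicate 1 in the fit of all groups, SLC2A1 (adjusted p = 0.0472) and PKM (0.0427) passed. For the genes that fell with PRMT5i, the intervals on the log2 scale were −0.37 to 0.09 for PFKL, −0.05 to 0.29 for GAPDH, −0.19 to 0.26 for PGK1 and −0.24 to 0.12 for ENO1. They bound the difference of the combination from PRMT5i only by the spread between these libraries, which may be technical.

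The interaction asks whether EZH2i changed a gene by a different factor in cells with PRMT5i than in cells without it. None of the 10 genes passed with edgeR's quasi-likelihood test, beside 0.254% of all genes tested called higher and 0.0362% lower (0.29% either way). DESeq2 called 0 of them, and 0 had p under 0.05 before adjustment. PKM came closest (−0.31 on a log2 scale, adjusted p = 0.568, SE 0.154). For SLC2A1 the estimate was −0.04 with a 95% interval of −0.36 to 0.28.

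The shares of the isozymes of a step also differed between treatments. They were taken per library from CPM per kb of principal transcript, and no test was run on them. PFKL made up 57.2 to 59.7% of the 3 phosphofructokinase transcripts with DMSO and 56.7 to 61.0% with EZH2i, but 43.0 to 47.9% with PRMT5i and 42.6 to 46.7% with the combination. Shares of a family add up to the whole, so the PFKP share rose as that of PFKL fell. PFKP itself did not pass against DMSO with PRMT5i (log2 fold change 0.18, adjusted p = 0.102) or with the combination (0.06, adjusted p = 0.610). Its mean shares were 40.8 and 40.3% in the groups without PRMT5i and 54.1 and 54.3% in those with it. PFKM, the muscle-type subunit, stayed between 0.702 and 1.37%. For the PFKL and PFKP shares, the 8 libraries with PRMT5i did not overlap the 8 without it. With joined exon lengths, the mean PFKL shares were 45.5, 46.1, 32.7 and 32.4% in the order DMSO, EZH2i, PRMT5i and combination. The level of the share thus depended on the length used. A change of length scales a gene alike in all libraries, so it could not test the drop.

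Of SLC2A1 and SLC2A3 together, SLC2A1 made up 15.2 to 22.7% with DMSO and 14.2 to 20.8% with EZH2i, against 33.2 to 37.7% with PRMT5i and 29.0 to 34.9% with the combination. SLC2A3 (GLUT3), the high-affinity glucose transporter, fell with PRMT5i from 189, 160, 214 and 228 CPM to 113, 103, 123 and 125 CPM. Its groups did not overlap (log2 fold change −0.77, adjusted p = 0.00120), and it remained the larger share of the pair in all 16 libraries. HK2 made up 66.7 to 78.4% of hexokinase transcripts with DMSO and 57.1 to 64.6% with PRMT5i, and HK3, a myeloid hexokinase, took 4.45 to 5.46% with PRMT5i against 1.37 to 3.41% with DMSO. With the combination both shares overlapped those with DMSO, at 65.2 to 75.7% for HK2 and 2.70 to 3.17% for HK3. For HK3 that overlap rested on DMSO replicate 1 (3.41%), since the other DMSO libraries lay at 1.37 to 2.30%. HK3 itself was called higher with the combination than with DMSO in all 16 fits with a library left out (log2 fold change 0.71 to 0.96). With EZH2i the shares of HK2 and HK3 were 65.5 to 77.2% and 0.617 to 1.49%. LDHA made up 15.1 to 26.2% of the LDHA and LDHB transcripts with DMSO, the lowest value being DMSO replicate 1, and more in every library of the other groups: 29.2 to 32.3% with EZH2i, 28.6 ± 1.39% with PRMT5i (SD, n = 4, lowest 26.7%) and 30.8 to 34.6% with the combination. LDHB shares 33.4% of its exon bases with AC010197.2, so its level is uncertain.

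**Figure D3:**
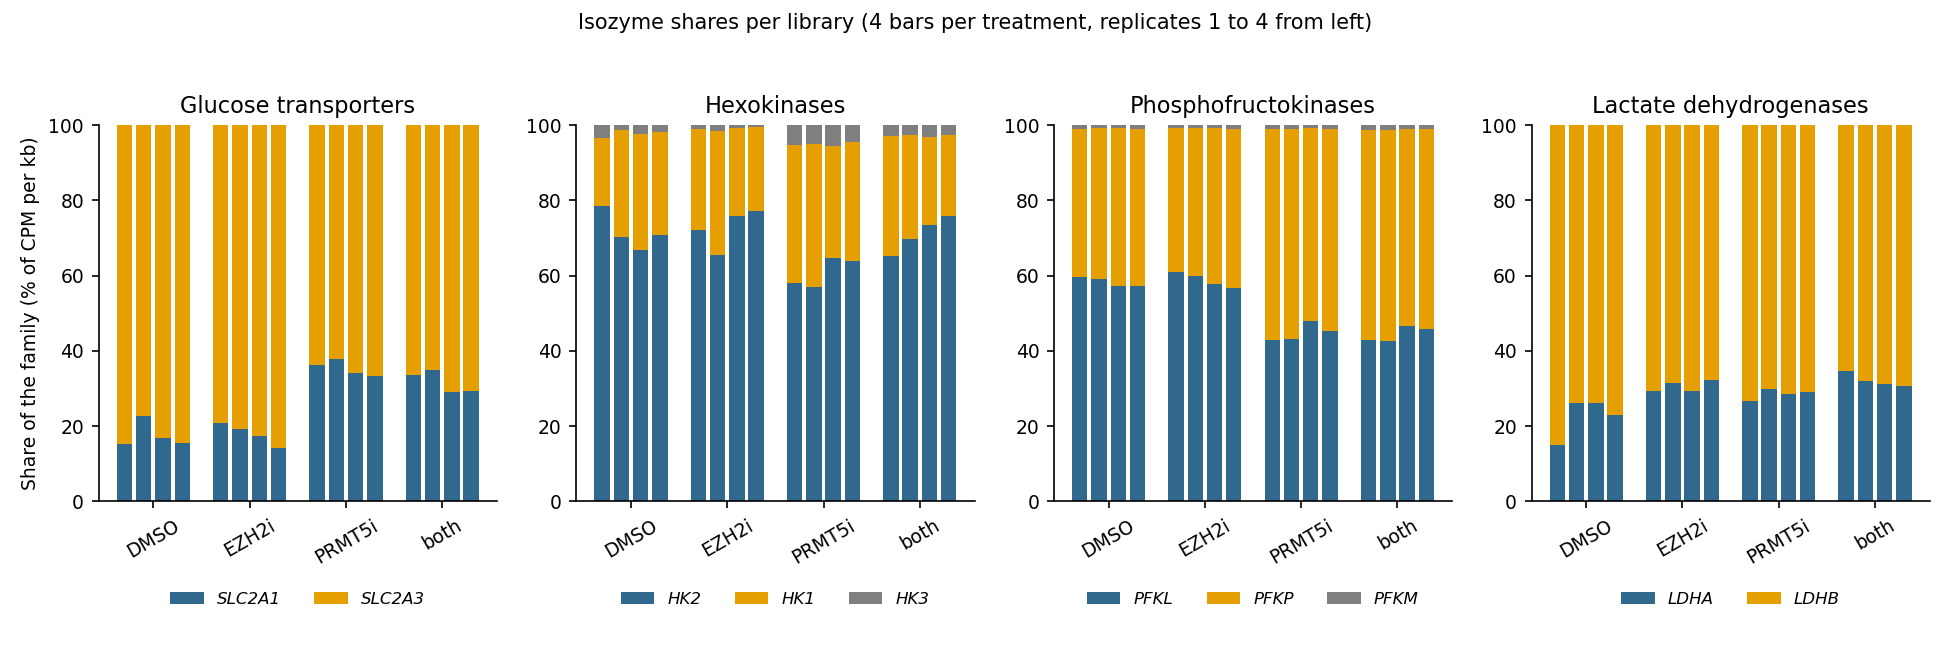
Share of each isozyme in its family, in percent of CPM per kb of principal transcript, with 1 stacked bar per library and 4 bars per treatment. The blue part of the phosphofructokinase bars, PFKL, is 56.7 to 61.0% in the 8 bars without PRMT5i and 42.6 to 47.9% in the 8 bars with it, and the SLC2A1 part of the transporter bars is 14.2 to 22.7% against 29.0 to 37.7%.

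Of 25 other genes of the glycolytic steps, 16 could be tested. With PRMT5i, 2 of them rose and 7 fell (median log2 fold change −0.09), beside 17.1% of all genes tested called higher and 18.3% lower. SLC2A5, the fructose transporter, rose from 54.4 to 69.3 CPM with DMSO to 133 to 147 CPM (log2 fold change 1.16, adjusted p = 2.38e-07), and HK3 rose from 1.25 ± 0.242 to 3.91 ± 0.618 CPM (SD, n = 4, log2 fold change 1.64, adjusted p = 3.73e-06). The triose-phosphate isomerase TPI1 fell from 473 to 665 CPM to 388 to 434 CPM (−0.38, adjusted p = 0.00571), beside LDHB (−0.43), ALDOC (−0.33), BPGM (−0.36), SLC2A3, and the neuronal and muscle enolases ENO2 (−1.07) and ENO3 (−0.63). With each of the 16 libraries left out in turn, ENO3 passed in 11 fits, BPGM in 12 and ALDOC in 15, and the other 6 called genes in all 16. GPI, PGAM1, HK1 and PFKM were among those that did not pass (0.14, −0.08, 0.58 and −0.06).

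ENO2 was among 3 of these genes that passed with EZH2i alone, at 8.70 ± 1.74 CPM against 4.80 ± 0.964 with DMSO (SD, n = 4, log2 fold change 0.86, adjusted p = 0.0102). It was higher with the combination than with PRMT5i too (0.78, adjusted p = 0.0269), a call that held in 10 of the 16 fits with a library left out and was lost on dropping any 1 of the 4 PRMT5i replicates or combination replicate 3 or 4. ALDOC was the other gene that was higher with EZH2i (0.39, adjusted p = 0.0280), and SLC2A8 was lower (−0.47, adjusted p = 0.0399). That made 3 of 16, beside 7.6% of all genes tested. ENO2 passed with EZH2i in all 16 fits with a library left out, ALDOC in 11 and SLC2A8 in 6. The count of 3 rose to 7 when DMSO replicate 2 was dropped, a fit in which 4591 genes passed in all in place of 1259. That count of 3 became 1 when replicate 3 or replicate 4 of either group was dropped. HK3 was lower with the combination than with PRMT5i (−0.82, adjusted p = 0.0158), in 13 of the 16 such fits (not without PRMT5i replicate 3, combination replicate 1 or combination replicate 2). The count of this list in that comparison was 3 of 16, beside 4.16% of all genes tested. It ran from 0 to 4 with a library left out, and was 0 without PRMT5i replicate 3, when 263 genes passed in all in place of 688.

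Around the pathway, 22 of 24 genes that set its flux or the fate of pyruvate could be tested, of which 3 rose and 5 fell with PRMT5i (median log2 fold change −0.09), a share near the 35.3% over all genes tested. PDK1, the kinase that keeps pyruvate out of the mitochondrial dehydrogenase, fell from 33.5 to 53.1 CPM to 21.0 to 23.9 CPM (−1.06, adjusted p = 1.34e-05). The dehydrogenase subunit PDHA1 (−0.43, adjusted p = 0.000347) and the pyruvate carrier MPC1 (−0.55, adjusted p = 0.00424) fell as well. PFKFB2, which makes the activator of phosphofructokinase, rose from 0.725 ± 0.336 to 2.73 ± 0.346 CPM (SD, n = 4, 1.91, adjusted p = 0.000275). TIGAR, which breaks that activator down, also rose (0.76, adjusted p = 0.000865), but 42.6% of its exon bases overlap another gene, as do 21.3% of those of PDHA1. Without DMSO replicate 2, 13 genes of this list passed in place of 8. Calls over all genes in this comparison ran from 4898 to 6853 with a library left out, in place of 5847.

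Gluconeogenesis runs the pathway backwards, and 5 of its 8 listed genes could be tested. With PRMT5i 1 rose and 3 fell (median log2 fold change −0.73), beside 17.1% of all genes tested called higher and 18.3% lower. FBP1, which opposes phosphofructokinase, rose from 0.887, 1.53, 1.18 and 1.11 CPM to 5.24, 5.76, 7.05 and 6.09 CPM. The groups were far apart (2.36, adjusted p = 2.59e-08), and FBP1 was lower with the combination than with PRMT5i (−0.80, adjusted p = 0.00674). PCK2, the mitochondrial enzyme that makes phosphoenolpyruvate, fell from 101, 138, 113 and 112 CPM to 28.3, 29.2, 29.6 and 26.2 CPM (−2.03, adjusted p = 9.71e-08). The glucose-6-phosphate transporter SLC37A4 (−1.39, adjusted p = 4.86e-08) and the phosphatase G6PC3 (−0.73, adjusted p = 0.00423) fell too. In the pentose phosphate pathway, 10 of 11 genes could be tested, of which 1 rose (PGLS, 0.41) and 3 fell (PRPS1, −0.48, PRPS2, −0.75, and RPE, −0.90). The median was 0.04, and the share called either way over all genes tested was 35.3%. Without DMSO replicate 2, 7 of these genes passed, while calls over all genes ran from 4898 to 6853 with a library left out, in place of 5847. The call of PGLS held in 10 of the 16 fits with a library left out. RPE and FBP1 share 23.8 and 16.3% of their exon bases with other genes.

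The HIF genes outside the pathway did not move as 1 group with PRMT5i: of 24 listed, 22 could be tested, 2 rose and 6 fell (median log2 fold change −0.01), a share near the 35.3% over all genes tested. VEGFA, the vascular growth factor, fell from 101 to 178 CPM to 35.9 to 44.6 CPM (−1.88, adjusted p = 1.07e-07). DDIT4 (−1.35, adjusted p = 9.30e-07), an mTOR inhibitor, and CA9 (−1.92, adjusted p = 0.00103), a carbonic anhydrase at 0.716 ± 0.183 CPM with DMSO, fell as well. EPAS1 (HIF-2α) rose from 0.504 ± 0.174 to 2.36 ± 0.302 CPM (SD, n = 4, 2.20, adjusted p = 4.79e-06), and ARNT, the shared HIF partner, rose by 0.51 (adjusted p = 0.000256). DDIT4 and CA9 share 41.2 and 38.5% of their exon bases with other genes and are uncertain. With the combination against DMSO, 6 of the 22 were higher and 3 lower, beside 17.6% of all genes tested called higher and 18.5% lower.

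Among 16 tested regulators of glycolysis genes, 5 rose and 1 fell with PRMT5i (median log2 fold change 0.23), a share again near the 35.3% over all genes tested. TXNIP and ARRDC4 encode arrestin-domain proteins that remove glucose transporters from the cell surface. TXNIP measured 841, 597, 649 and 687 CPM with DMSO, against 1197, 1137, 1383 and 1432 CPM with PRMT5i (0.89, adjusted p = 1.27e-05), and 490 to 549 CPM with EZH2i (−0.40, adjusted p = 0.0410). ARRDC4 followed the same order: 28.1 to 35.2 CPM with DMSO, 48.2 to 65.0 CPM with PRMT5i (0.84, adjusted p = 1.13e-05), 17.9 to 23.1 CPM with EZH2i (−0.58, adjusted p = 0.00434) and 36.1 to 39.2 CPM with the combination. With EZH2i these were the only 2 calls among the 16 regulators, beside 7.6% of all genes tested. That count ran from 1 to 9 with a library left out (9 without DMSO replicate 2, when 4591 genes passed in all in place of 1259). ARRDC4 passed in all 16 of those fits and TXNIP in 4 (log2 fold change −0.47 to −0.29, adjusted p of up to 0.107). For both genes the DMSO, EZH2i and PRMT5i groups did not overlap. The glucose-response factors MLXIP (0.60, adjusted p = 0.00938) and USF1 (0.54, adjusted p = 0.000508) also rose, and the MYC antagonist MXI1, which is on the HIF list too, fell (−0.52, adjusted p = 0.00284).

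**Figure D4:**
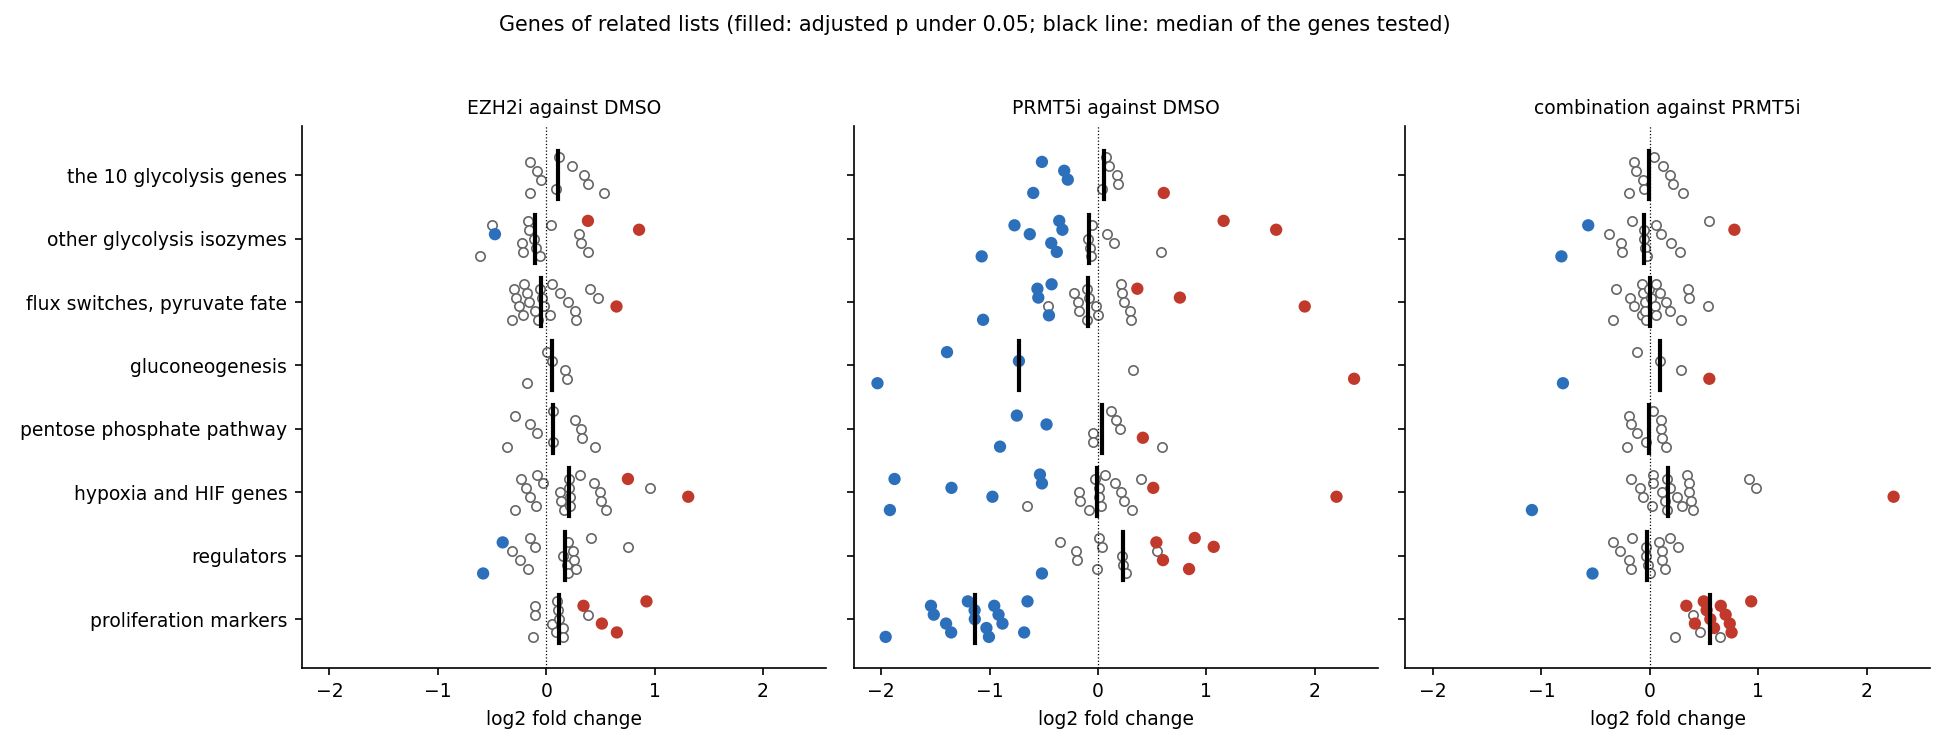
Log2 fold changes of the tested genes of each list in 3 comparisons, with 1 point per gene, filled where the adjusted p was under 0.05 (red higher, blue lower), and a black line at the list median. With PRMT5i against DMSO the glycolysis genes are spread around a median of 0.06, while the 15 proliferation markers lie to the left with a median of −1.14.

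Proliferation and differentiation markers moved with PRMT5i beside these genes. All 15 proliferation markers fell (median log2 fold change −1.14), beside 18.3% of all genes tested. With the combination 11 of 15 were higher than with PRMT5i (median 0.56), beside 2.91% of all genes tested. That count of 11 became 6 without PRMT5i replicate 3, PRMT5i replicate 4 or combination replicate 1, and 7 without combination replicate 2. In these fits 263, 327, 393 and 373 genes passed in all, in place of 688. The summed level of 11 monocyte and macrophage markers was 536 to 938 CPM with DMSO, 624 to 816 with EZH2i, 1057 to 1397 with PRMT5i and 887 to 1048 with the combination. By mean, 6 of the 11 lay under 1 CPM with DMSO and with EZH2i, 4 with PRMT5i and 5 with the combination. Of the 11 markers, 8 could be tested and 6 of those rose with PRMT5i, beside 17.1% of all genes tested. The sums of epithelial and fibroblast markers were 12.7 to 17.6 CPM with DMSO, 19.5 to 31.7 with EZH2i, 20.2 to 22.0 with PRMT5i and 26.0 to 28.7 with the combination, and those of T and NK cells 43.1 to 73.6 CPM over all libraries. Their part in the values of the glycolysis genes was not tested. In bulk RNA, fewer cells of a type and less RNA per cell cannot be told apart.

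Reads shared with other loci touched some of the 10 genes. ALDOA shares 42.3% of its exon bases with AC093512.2 on the same strand, and that identifier is absent from the counts used here, so ALDOA is the least certain. GAPDH shares 14.2% with the antisense AC006064.4, whose counts came to 0.0157% of those of GAPDH. Of 61 GAPDH pseudogenes by symbol, 32 had counts, and together they held 0.126% of the GAPDH count, while for LDHA the share was 1.14%. Counts per gene cannot separate the M1 and M2 forms of PKM, which arise by splicing.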

How the data were processed

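Per the labels' protocols, RNA of MOLM-13 cells was column-purified and sequenced as paired-end reads. The authors deposited 1 table of expected counts per gene from RSEM, unscaled, after alignment with STAR 2.5.3 to GRCh38.p7, per the submitters' processing notes. The RSEM version, annotation, settings and strandedness are not given in the sources used here. RSEM divides reads between genes they match, and 12% of values were not whole.

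Expected counts were rounded, filtered with filterByExpr of edgeR 4.0.16 (R 4.3.3) and scaled by TMM, and 4 group means were fitted to all 16 libraries by glmQLFit. Contrasts were tested by glmQLFTest with Benjamini-Hochberg adjustment over 16555 genes and a threshold of 0.05. SEs are the log2 fold change over the root of F, and intervals are 95%. The steps were tested on simulated counts. Lengths and overlaps came from GENCODE release 29, matched by Ensembl identifier for all 181 listed genes. Promoters came from RefSeq. Alternatives were DESeq2 1.42.0, RLE and total-count scaling, no filter, 2-group fits, a replicate block, replicates 1 and 2 against 3 and 4 as a term, added pseudogene counts and each library left out. No 2 replicates were alike within sampling noise (lowest chi-square per degree of freedom 8.12).

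The 10 genes and all lists were chosen with earlier results of these data known. Named are all 10, any tested gene of the glycolytic steps, and up to 5 per other list with the smallest p with PRMT5i against DMSO among those past the threshold there or for the combination against PRMT5i. Figures were drawn with matplotlib 3.10.9 in Python 3.11.15.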

Additional observations from a re-analysis of the deposited data

Results flagged for a closer look

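PKM in DMSO replicate 1 lay far from the other libraries of its group, at 379 CPM against 566 to 578 CPM. The gap to the nearest of the others was 0.943 of the whole range, above Dixon's critical value for 4 samples. It was the only such value among 40 groups checked (10 genes in 4 treatments), and chance alone marks about 1 group in 20.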

How the results depend on the processing

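The calls of SLC2A1, PFKL and GAPDH with PRMT5i against DMSO, and with the combination against DMSO and EZH2i, held under every alternative run. Of 1430 values of the 10 genes under alternatives, 1373 kept direction and side of the threshold, 11 lost and 23 gained a call, and 23 changed sign, 0 of them called. The number of genes called for EZH2i against DMSO went from 0 to 2 with DESeq2, 1 with the replicate block, 1 with replicates 1 and 2 against 3 and 4 as a term, and 0 to 4 with a library left out. For PRMT5i against DMSO it went from 5 to 3 without the filter, 3 with only the 2 groups fitted and 3 to 5 with a library left out. For the combination against PRMT5i it went from 0 to 3 with only the 2 groups fitted and 0 to 2 with a library left out. Leaving out a library gave 4 to 5 for the combination against DMSO, 3 to 6 against EZH2i and 0 each time for the interaction.

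With total counts only, log2 values changed sign for PFKP (0.0097) and PFKL (0.049) in EZH2i against DMSO, PKM in the combination against DMSO (0.10), and ALDOA (0.021) and ENO1 (0.015) in the combination against PRMT5i. That scaling moved the median of all genes to 0.13 for the combination against DMSO. It also moved the share of calls that were higher from 54.1 to 74.7% for EZH2i against DMSO, from 48.7 to 65.8% for the combination against DMSO and from 70.1 to 86.1% against PRMT5i. With a library left out, log2 values spanned 0 as follows. EZH2i against DMSO gave PFKL −0.12 to 0.044 and PKM −0.0043 to 0.17. PRMT5i against DMSO gave HK2 −0.13 to 0.34, ALDOA −0.087 to 0.16 and LDHA −0.10 to 0.12. The combination against DMSO gave ALDOA −0.15 to 0.10 and PKM −0.16 to 0.034. The interaction gave SLC2A1 −0.13 to 0.031, PFKP −0.10 to 0.021 and GAPDH −0.0055 to 0.075. Over all genes, 1259 calls for EZH2i against DMSO became 2176 with DESeq2, 135 with 2 groups and 499 to 4591 with a library left out. For the combination against PRMT5i, 688 became 1067, 2099 and 263 to 1011, and 48 for the interaction became 113 with DESeq2 and 28 to 124. The cause was not tested.

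Pairing by replicate number was not clear. The 24 same-numbered pairs had correlations of −0.27 to 0.24, 9 of them over 0.1, beside a median of −0.025 for other-numbered pairs. Some other-numbered pairs were over 0.1 too, and the highest correlation of all was between DMSO replicate 2 and EZH2i replicate 1 (0.47). Among the 4 numbers, 8 of 16 libraries correlated best with their own. Same-numbered pairs of PRMT5i and the combination ran from 0.026 to 0.24, and those of DMSO and EZH2i from −0.27 to 0.21. A shared origin of same-numbered libraries was not tested further. The replicate block also added PGK1 for the combination against DMSO (adjusted p = 0.0436, edgeR quasi-likelihood).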

Other observations

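HK2 was lower in replicates 1 and 2 than in replicates 3 and 4 in the 3 groups with an inhibitor, by mean CPM: 104 against 137 with EZH2i, 72.3 against 105 with PRMT5i and 93.9 against 113 with the combination. With DMSO the means were 81.2 and 84.5, and that order rested on replicate 1 (41.9), since replicate 2 (121) lay above replicates 3 and 4. The labels name no batch, and the pattern was noticed after seeing the values.

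DMSO replicate 1 was the lowest of all 16 libraries for SLC2A1, HK2, ALDOA, PKM and LDHA and the highest for PGK1 and ENO1. Without it, the DMSO means were 41.3 ± 2.60 CPM for SLC2A1, 573 ± 6.08 for PKM and 568 ± 29.4 for LDHA (SD over the other 3 libraries).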
